A study of Mus musculus with 6 samples.

Results

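The Egr genes encode zinc finger transcription factors and the Nab genes encode the corepressors that bind them. All 6 members of the group, Egr1, Egr2, Egr3, Egr4, Nab1 and Nab2, were found by symbol among 32066 named genes in a table of hippocampal RNA counts, and all 6 passed the filter on low counts with 18629 genes in total. They were chosen with the differences between the study's groups already known, so their values in this comparison are a description and carry no p-value. Poly(A) RNA came from the hippocampus of female wild type C57BL/6J mice aged 17 weeks, all of which had been ovariectomised. The OVX+RJ group, 3 libraries, was fed royal jelly (food that worker bees secrete for larvae) at 1% of the diet from 8 weeks of age, and the OVX group, 3 libraries, ate a control diet. Each library is labelled a biological replicate, and the labels do not say whether it came from 1 mouse or several. The hour of tissue collection is not given in the labels either, and its part in the values below was not tested. A group with sham surgery named in the protocol is not analysed here, so the effect of ovariectomy itself cannot be read from these libraries.

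Egr genes are immediate early genes. Neurons switch them on rapidly after synaptic activity, through kinases of the MAPK pathway acting on the serum response factor and its Elk partners, and through CREB. Their proteins bind GC-rich sites. Egr1, also called Zif268, is widely used as a marker of activity in hippocampal neurons and is needed for the late phase of long-term potentiation. Egr2, also called Krox20, is best known for segmenting the hindbrain and for switching on myelin genes in Schwann cells. Egr3 is needed for muscle spindle development and has been tied to hippocampal memory, and Egr4 is best known from male fertility. Nab1 and Nab2 bind a short inhibitory domain that Egr1, Egr2 and Egr3 share and Egr4 lacks, and repress transcription there. Nab2 is itself induced by Egr proteins, which closes a feedback loop.

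Promoter windows from RefSeq, on the mouse build GRCm38.p6, were available for 4 of the 6 members, in 8 windows that each hold 250 bases before and 50 after a transcription start. 1 window each of Egr2, Egr4 and Nab1 is printed in lower case with each match in capitals, because activity-regulated factors and Egr proteins are known to act through sites of these kinds. The motifs, sought on both strands, were the CArG box (bound by the serum response factor), the cyclic AMP response element TGACGTCA, its core TGACG, the Egr sites GCGTGGGCG and GCGGGGGCG, and the TATA box TATAAA. The core lies within the full element, so every full match is also a core match.
Egr2 (chr10:67537619-67537918, + strand): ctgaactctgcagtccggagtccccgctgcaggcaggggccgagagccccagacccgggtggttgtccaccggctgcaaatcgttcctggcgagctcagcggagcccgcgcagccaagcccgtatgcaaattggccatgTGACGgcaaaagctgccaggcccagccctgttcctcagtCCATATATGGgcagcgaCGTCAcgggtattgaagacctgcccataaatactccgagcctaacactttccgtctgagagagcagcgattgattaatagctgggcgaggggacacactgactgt
Egr4 (chr6:85513540-85513839, - strand): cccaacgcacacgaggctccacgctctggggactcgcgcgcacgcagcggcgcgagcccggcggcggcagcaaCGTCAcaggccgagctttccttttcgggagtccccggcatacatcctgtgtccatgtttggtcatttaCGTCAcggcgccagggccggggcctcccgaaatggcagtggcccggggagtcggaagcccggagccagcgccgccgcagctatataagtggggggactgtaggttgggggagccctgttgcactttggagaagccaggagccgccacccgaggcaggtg
Nab1 (chr1:52500399-52500698, - strand): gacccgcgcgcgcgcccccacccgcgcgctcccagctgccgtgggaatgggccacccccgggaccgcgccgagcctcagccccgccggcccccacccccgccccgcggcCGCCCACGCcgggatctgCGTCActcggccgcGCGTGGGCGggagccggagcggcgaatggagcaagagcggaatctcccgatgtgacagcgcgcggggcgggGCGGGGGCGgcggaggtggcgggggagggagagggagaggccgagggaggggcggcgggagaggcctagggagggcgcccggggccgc
In Egr2 the capitals mark a core TGACG, the CArG box CCATATATGG, which ends 63 bases before the start, and a core on the other strand between it and the start. Of the 5 RefSeq windows of Egr2, 2 overlap the printed one and hold the same matches, 1 (chr10:67537316-67537615) holds another CArG box, CCTTTTTTGG, and 1 holds no match. A CArG box occurs in 1.63% of all 32851 promoter windows of this length. In Egr4 they mark 2 cores, both on the other strand, and 20.8% of all windows hold a core. In Nab1 they mark 2 copies of GCGTGGGCG, 1 on each strand, a core between them and a copy of GCGGGGGCG nearer the start. GCGTGGGCG occurs in 0.612% and GCGGGGGCG in 2.91% of all windows. Those shares are over windows of any composition, while 81.7% of the bases in the Nab1 window are G or C. Windows of like composition were not compared. The single Nab2 window held none of these letters, and no member's window held TGACGTCA, found in 1.79% of all windows, or TATAAA, found in 13.6%. These matches are letters only and were not measured as bound sites.

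The libraries held between 34718592.5 and 58163779 counts, of which 6.46% to 6.91% came from mitochondrial genes. The library OVX+RJ 1 stood apart, its profile across genes (log2 scale) having a mean Pearson r of 0.983 with the rest, where every other library reached 0.986 to 0.987. Marker genes fixed for dentate granule cells, CA1 pyramidal cells and CA3 pyramidal cells were present in every library, with summed levels from 514.0 to 784 CPM (counts scaled to each library's total over all named genes), 585 to 659 CPM and 263 to 312 CPM. By the quasi-likelihood test of edgeR, adjusted by Benjamini-Hochberg, 0 of the 18629 genes passed an adjusted p of 0.05 in either direction (0% called), and none of the Egr and Nab genes did, while 398 were higher and 356 lower at an unadjusted p under 0.05. DESeq2 called 10 genes higher (0.0537%) and 3 lower (0.0161%). The statements that follow are therefore about the values of these 6 libraries.

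Egr2 had the largest difference of the group and Egr1 the second largest, with values in OVX+RJ above every OVX library. Egr2 stood at 6.57, 3.66 and 6.12 CPM in OVX+RJ 1, 2 and 3, against 1.81, 1.29 and 1.55 CPM in OVX 1, 2 and 3. These rest on 253, 144 and 221 counts in OVX+RJ and 63, 75 and 63 counts in OVX, and the 95% Wilson intervals, which cover counting error only, ran no lower than 3.11 CPM in OVX+RJ and no higher than 2.32 CPM in OVX. The groups did not overlap, OVX+RJ 2 was the lowest of its group, and the spread among OVX+RJ libraries, an SD of 1.57 CPM, was above that of OVX, 0.263 CPM (n = 3 each). The fitted log2 fold change of Egr2, OVX+RJ over OVX, was 1.84 (SE 0.26), a 3.57-fold difference, the 11th highest of the 18629 genes tested.

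Egr1, the activity marker, stood at 118, 125 and 141 CPM in OVX+RJ 1, 2 and 3, against 102, 91.9 and 91.8 CPM in OVX 1, 2 and 3. The groups did not overlap, and here OVX+RJ 3 was the highest library while OVX+RJ 1, which led for Egr2, was the lowest of its group. Egr1 averaged 128 ± 11.5 CPM in OVX+RJ libraries, against 95.1 ± 5.62 CPM in OVX (SD, n = 3 each). Its log2 fold change was 0.44 (SE 0.073).

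**Figure D1:**
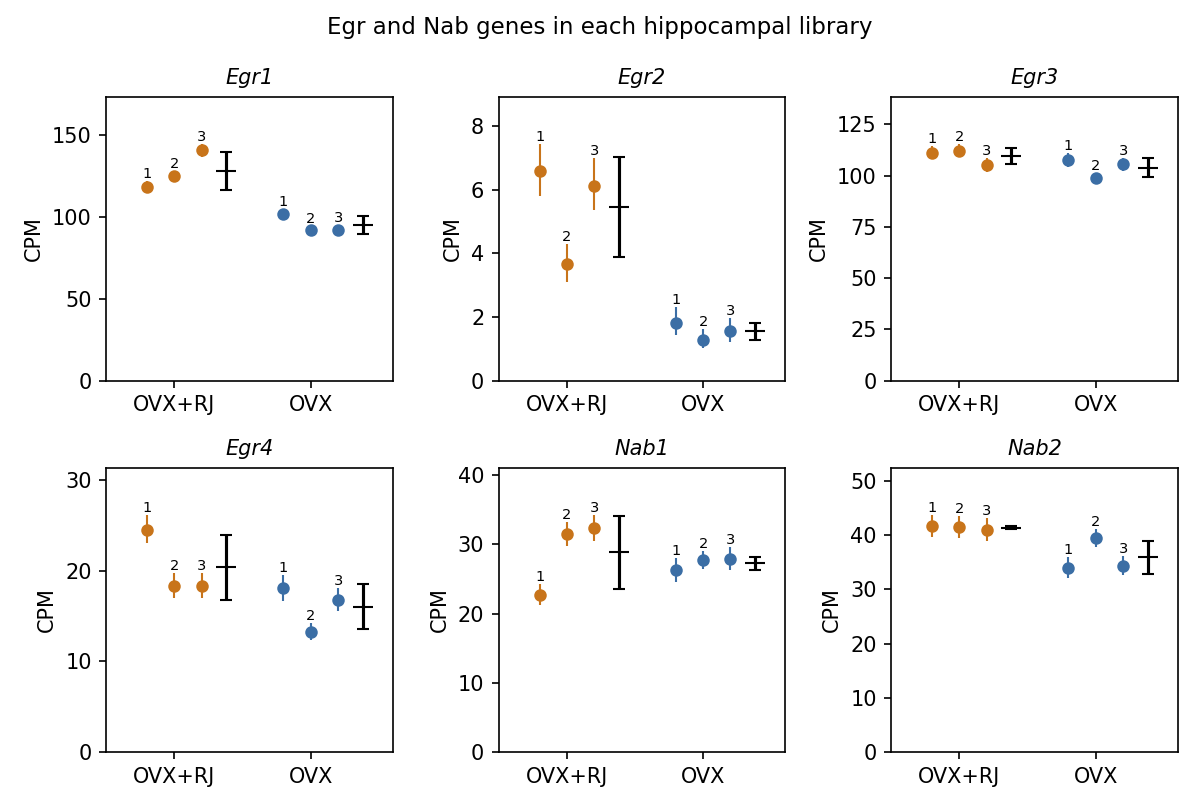
Level of each gene in each library, in CPM, with OVX+RJ libraries in orange and OVX libraries in blue, numbered by replicate. Vertical lines through the points are 95% Wilson intervals and black marks are group means with SD; Egr1, Egr2, Egr4 and Nab2 have no overlap between groups, while Egr3 and Nab1 overlap.

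Egr4, the member without the Nab-binding domain, stood at 24.5, 18.3 and 18.3 CPM in OVX+RJ 1, 2 and 3, against 18.0, 13.3 and 16.8 CPM in OVX 1, 2 and 3. The groups did not overlap, but OVX+RJ 2 and OVX+RJ 3 lay close to OVX 1, and their 95% Wilson intervals overlapped those of OVX 1 and OVX 3. The log2 fold change of Egr4 was 0.36 (SE 0.15), and 0.20 without OVX+RJ 1 and 0.24 without OVX 2. Egr3, whose total counts were close to those of Egr1, stood at 111, 112 and 105 CPM in OVX+RJ 1, 2 and 3, against 107, 98.7 and 106 CPM in OVX 1, 2 and 3. Its groups overlapped, with OVX+RJ 3 below both OVX 1 and OVX 3, and its log2 fold change was 0.088 (SE 0.064), or 0.054 without OVX 2. The 4 Egr genes thus differed among themselves, from a log2 fold change of 0.088 in Egr3 to 1.84 in Egr2.

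The corepressor genes differed less than Egr1 and Egr2. Nab2 stood at 41.6, 41.5 and 41.0 CPM in OVX+RJ 1, 2 and 3, against 34.0, 39.4 and 34.4 CPM in OVX 1, 2 and 3. The OVX+RJ values lay close together and above the OVX values, of which OVX 2 was the nearest. The 95% Wilson interval of OVX 2, 37.8 to 41.0 CPM, overlapped that of every OVX+RJ library, which began at 39.6, 39.5 and 39.0 CPM. The log2 fold change of Nab2 was 0.21 (SE 0.083). Nab1 stood at 22.8, 31.4 and 32.3 CPM in OVX+RJ 1, 2 and 3, against 26.2, 27.7 and 27.9 CPM in OVX 1, 2 and 3. The OVX+RJ libraries lay on both sides of the OVX group, with OVX+RJ 1 the lowest of all 6, and the log2 fold change was 0.087 (SE 0.12). It was 0.0036 without OVX+RJ 3, 0.027 without OVX+RJ 2, 0.055 without OVX 1 and 0.22 without OVX+RJ 1. Nab2 shares exon sequence on the opposite strand with Stat6 (40 bases), Nemp1 (151 bases) and the antisense gene Gm16229 (1050 of its 2941 exon bases) in the GENCODE M21 annotation, and whether the counting used strand is not given in the sources used here. Counts assigned to Gm16229 were 10, 4 and 4 in OVX+RJ and 0, 13 and 6 in OVX, against at least 1181 for Nab2 in every library.

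All 6 members had a positive log2 fold change, where 49.6% of all tested genes did, with a median of 0.29 against -0.0015 over all tested genes. Values did not overlap between groups at 4 of the 6, all higher in OVX+RJ, where 4.53% of all tested genes were higher and 5.95% lower without overlap. Since this comparison chose the members, nothing is read from these counts.

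**Figure D2:**
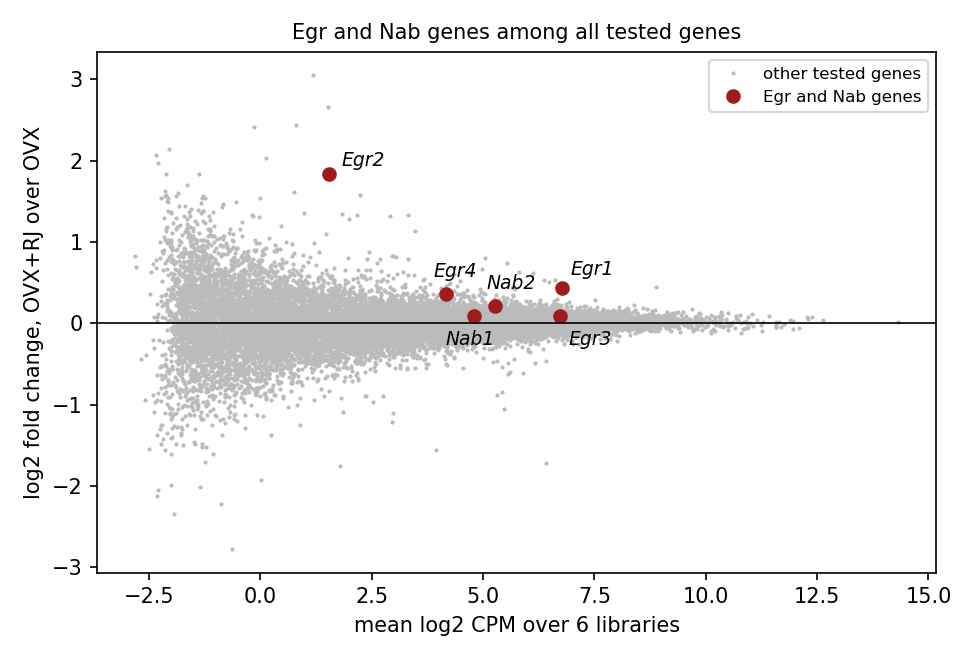
Log2 fold change, OVX+RJ over OVX, against mean log2 CPM over the 6 libraries for all 18629 tested genes (grey) and the Egr and Nab genes (red). Egr2, at 1.84, lies near the upper edge of the cloud, Egr1 lies at 0.44, and Egr3 and Nab1, at 0.088 and 0.087, lie within it.

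Ratios inside a library do not depend on its scaling. Egr1 had 1.06, 1.11 and 1.34 counts per Egr3 count in OVX+RJ 1, 2 and 3, against 0.945, 0.931 and 0.869 in OVX 1, 2 and 3. Egr1 counts, not adjusted for transcript length, thus exceeded Egr3 counts in every OVX+RJ library and in no OVX library. Egr2 counts equalled 5.56%, 2.93% and 4.35% of the Egr1 counts in OVX+RJ 1, 2 and 3, against 1.79%, 1.40% and 1.68% in OVX 1, 2 and 3. Egr2 stayed a small part of the family in all libraries, between 1.41% and 2.52% of the summed Egr CPM in OVX+RJ and between 0.629% and 0.793% in OVX. Nab2 counts per Nab1 count were 1.83, 1.32 and 1.27 in OVX+RJ 1, 2 and 3, against 1.30, 1.42 and 1.23 in OVX 1, 2 and 3. These ratios overlapped, with OVX+RJ 1 alone above the rest.

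**Figure D3:**
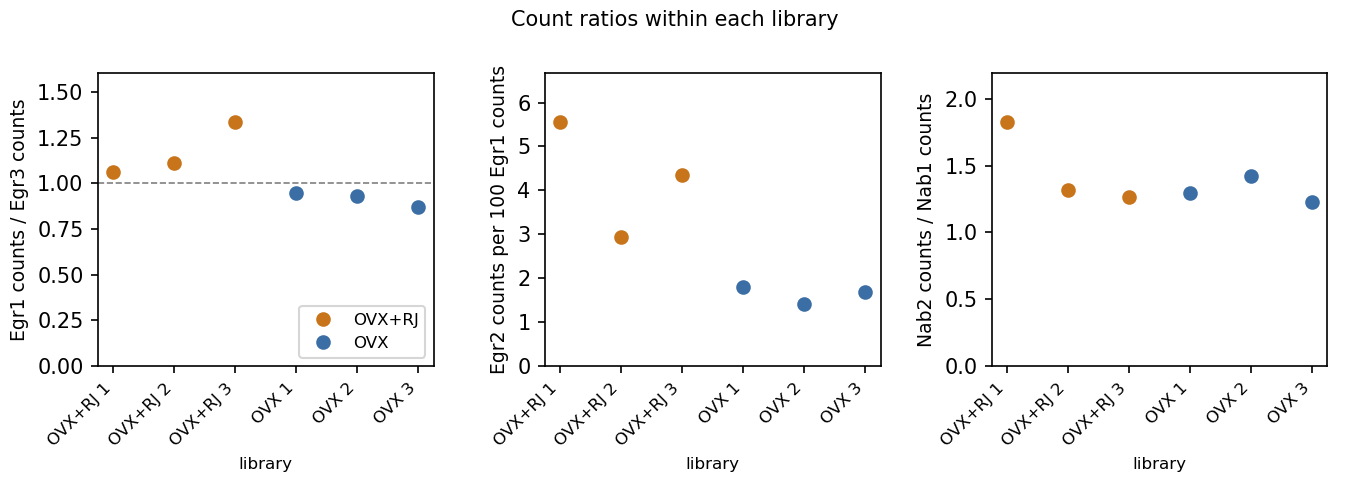
Count ratios within each library: Egr1 to Egr3 (dashed line at equal counts), Egr2 as a percentage of Egr1, and Nab2 to Nab1, with OVX+RJ in orange and OVX in blue. The first 2 ratios are higher in all OVX+RJ libraries than in any OVX library, and the third overlaps.

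Levels of different genes were compared per kilobase, using the longest coding transcript of each gene in GENCODE M21. In OVX+RJ, Egr1 averaged 28.5 ± 2.57 and Egr3 27.8 ± 0.958 CPM per kilobase (SD, n = 3), and their libraries overlapped. In OVX, Egr1 averaged 21.2 ± 1.25 and Egr3 26.4 ± 1.16 CPM per kilobase, without overlap. Nab2 came next, at 16.0 ± 0.118 CPM per kilobase in OVX+RJ and 13.9 ± 1.17 in OVX, above Egr4, at 9.49 ± 1.66 and 7.46 ± 1.15, and Nab1, at 7.45 ± 1.37 and 7.05 ± 0.238. With these lengths every Egr4 library was above every Nab1 library in OVX+RJ, while in OVX their ranges overlapped. Egr2 was the lowest in both groups, at 1.84 ± 0.529 CPM per kilobase in OVX+RJ and 0.523 ± 0.0886 in OVX. The order depends on the transcript: with the shortest coding transcript, 1509 instead of 3940 bases for Egr3, Egr3 was at 72.6 and Egr1 at 42.1 CPM per kilobase in OVX+RJ, and at 68.9 and 31.3 in OVX. Nab1 then averaged 21.0 CPM per kilobase in OVX+RJ and 19.9 in OVX, above the means of Nab2, 17.9 in OVX+RJ and 15.5 in OVX (the OVX+RJ libraries overlapped), and every Nab1 library was above every Egr4 library in both groups.

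The members did not follow a single pattern across the 6 libraries. Egr2 and Egr4 ranked the libraries in the same order, with a Spearman rho of 1.0 and a Pearson r of 0.80 on the log2 CPM scale, OVX+RJ 1 first and OVX 2 last. That order rests in part on a near tie of Egr4 in OVX+RJ 2 and 3, at 18.314 and 18.318 CPM, with overlapping 95% Wilson intervals. Egr3 and Egr4 had a Pearson r of 0.90, and 0.82 once each library was set against its group mean. Egr1 and Egr2 had an r of 0.93 over the 6 libraries and of 0.36 for the deviations from group means. Nab1 had an r of 0.37 with Egr1 and of -0.44 with Egr4. Each of these values rests on 6 libraries that share 1 preparation scheme and fall into 2 groups, and is a description.

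**Figure D4:**
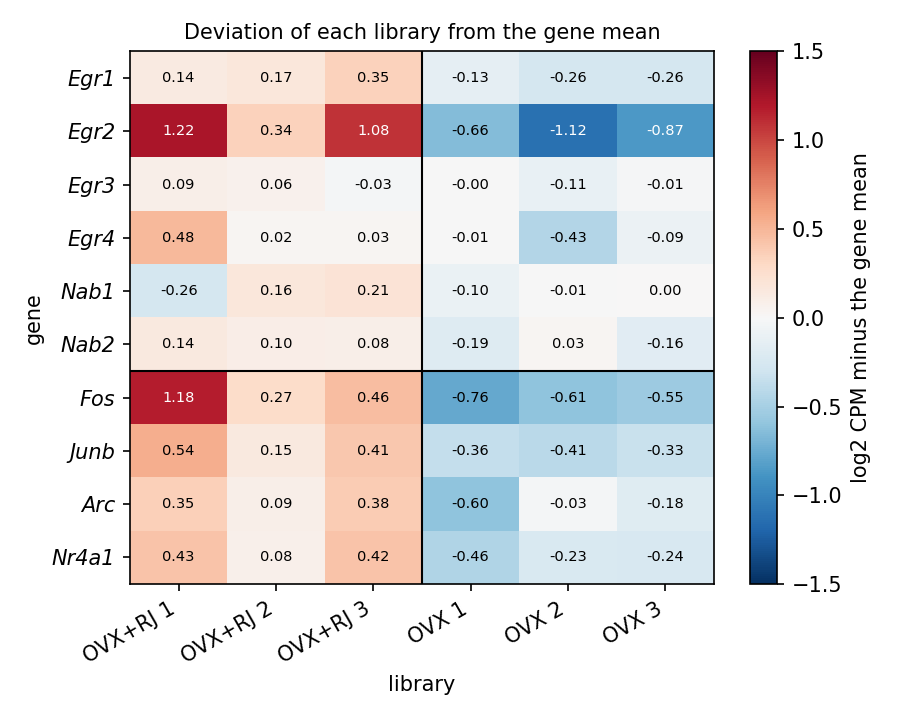
Log2 CPM in each library minus the gene's mean over the 6 libraries, for the Egr and Nab genes (above the line) and for Fos, Junb, Arc and Nr4a1 (below it), with red above and blue below the mean. OVX+RJ 1 is the highest library for Egr2, at 1.22, and for Fos, at 1.18, and the lowest for Nab1, at -0.26.

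Among named genes other than predicted genes and pseudogenes, the closest in pattern were chosen by Pearson r of log2 CPM over the 6 libraries. For Egr2 they were Klhl22, Ttc3, Snx17, Ankrd33b and Junb, with r from 0.997 to 0.992, and for Egr1 they were Psd2, Rnf17, Foxc1, Neto1 and Nhej1, with r from 0.989 to 0.968. For Egr3 they were Dhx9, Ptbp2, Hnrnpr, Abl2 and Hif1a, from 0.992 to 0.974, and for Egr4 Snhg17, Rora, Tma16, Akap8 and Tbl1xr1, from 0.994 to 0.989. For Nab1 they were Zfp108, Caps2, Med31, Neurog2 and Rtp4, from 0.998 to 0.989, and for Nab2 Fam167a, Zfp623, Gimap1, Rdh5 and Cdadc1, from 0.992 to 0.981. Each r rests on only 6 libraries. At a looser cut than these values, 69 genes had an r over 0.9 with Egr1 and 256 with Egr4. Junb, the AP-1 subunit gene, ranked 5th of 14775 for Egr2, and Egr2 ranked 34th for Egr1. The values of Fos and Junb, 22.1, 12.1 and 13.8 CPM and 65.8, 51.6 and 61.6 CPM in OVX+RJ against 5.90, 6.52 and 6.80 CPM and 36.4, 34.8 and 36.7 CPM in OVX, did not overlap between groups either.

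Genes upstream and downstream of the Egr family, from lists chosen with earlier results of these data known, were read from the same test. Of 26 regulators of Egr transcription (the serum response factor, Elk and CREB factors, their coactivators and MAPK pathway kinases), 0 passed the adjusted threshold in edgeR, 1 was higher and 3 were lower at an unadjusted p under 0.05, where 2.14% and 1.91% of all tested genes were, and the median log2 fold change was -0.0078. Mrtfa, a coactivator of the serum response factor, stood at 49.9, 55.2 and 54.7 CPM in OVX+RJ libraries, against 67.8, 66.8 and 61.7 CPM in OVX, without overlap. Rps6ka2, a kinase downstream of ERK, stood at 42.9, 44.6 and 39.3 CPM in OVX+RJ libraries, against 56.9, 48.8 and 47.6 CPM in OVX. Its relative Rps6ka3 stood at 34.97, 43.0 and 47.7 CPM in OVX+RJ libraries, against 17.8, 18.1 and 43.5 CPM in OVX, where OVX 3 lay among the OVX+RJ values. The log2 fold changes of Mrtfa, Rps6ka2, Rps6ka3 and Mrtfb were -0.29, -0.26, 0.67 and -0.15.

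The NuRD complex is the chromatin remodeller that Nab2 recruits through Chd4. Of its 14 listed genes 0 passed in edgeR and 0 had an unadjusted p under 0.05, with 8 log2 fold changes above 0 and 6 below and a median of 0.0040. Chd4 stood at 233, 231 and 224 CPM in OVX+RJ libraries, against 222, 219 and 212 CPM in OVX, and its log2 fold change was 0.087 (SE 0.055). Those of Gatad2b, Chd3 and Gatad2a were 0.10, -0.071 and 0.11.

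Of 19 genes described elsewhere as regulated by Egr proteins, 0 passed in edgeR, and the median log2 fold change was 0.040. At an unadjusted p under 0.05, 3 were higher and 0 lower, where 2.14% and 1.91% of all tested genes were. Among the 3 were Arc, whose product remodels synapses, and Gadd45b, a stress-response gene. Both are counted again in the list of other immediate early genes below. Arc stood at 122, 105 and 128 CPM in OVX+RJ libraries, against 65.2, 95.8 and 86.3 CPM in OVX. Gadd45b stood at 19.95, 12.95 and 12.6 CPM in OVX+RJ libraries, against 11.5, 11.3 and 9.08 CPM in OVX. Neither gene overlapped between groups. Ngfr, a neurotrophin receptor, averaged 1.09 ± 0.493 CPM in the OVX+RJ libraries and 1.52 ± 0.660 CPM in the OVX libraries (SD, n = 3 each).

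Egr2 controls myelin genes in Schwann cells, so those genes and Schwann cell markers were read beside it. Of 8 peripheral myelin genes tested 0 passed in edgeR and 0 had an unadjusted p under 0.05, with a median log2 fold change of -0.013. The summed level of the 3 Schwann cell markers in the table was 2.49 to 3.33 CPM in OVX+RJ libraries, against 1.89 to 2.39 CPM in OVX, nearly all of it Prx, at 2.38 ± 0.501 CPM in OVX+RJ libraries, against 1.80 ± 0.287 CPM in OVX. Mbp, shared with the oligodendrocytes of the brain, averaged 1732 ± 229 CPM in the OVX+RJ libraries and 1690.1 ± 394 CPM in the OVX libraries, and Pmp22 and Fa2h had log2 fold changes of -0.21 and -0.062.

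Of 25 other immediate early genes 0 passed in edgeR. At an unadjusted p under 0.05, 8 were higher and 0 lower, where 2.14% and 1.91% of all tested genes were. Their median log2 fold change was 0.35, and 20 were above 0, where 49.6% of all tested genes were. Without overlap, 7 were higher and 1, Klf4, lower, where 4.53% and 5.95% of all tested genes were. Set against gene means over the 6 libraries, the list averaged 0.37, -0.030 and 0.11 (log2 scale) in OVX+RJ 1, 2 and 3. It averaged -0.16, -0.18 and -0.10 in OVX 1, 2 and 3, so OVX+RJ 1 was the highest library. Nr4a1, an orphan nuclear receptor, stood at 73.7, 59.3 and 75.3 CPM in OVX+RJ libraries, against 41.1, 47.6 and 47.2 CPM in OVX. Of 4 other zinc finger factors of GC-rich sites tested, Sp4, Sp1, Sp3 and Klf9, 0 passed in edgeR and 0 had an unadjusted p under 0.05, with log2 fold changes between 0.067 and 0.15.

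Markers of other cell types differed between libraries beside these values. All 10 markers of dentate granule cells were negative on the log2 fold change scale (median -0.19), where 49.6% of all tested genes were positive. At an unadjusted p under 0.05 in edgeR, 3 of the 10 were lower and 0 higher, where 1.91% and 2.14% of all tested genes were. Their summed level was 514.0 to 762 CPM in OVX+RJ libraries, against 590 to 784 CPM in OVX. All 5 tested choroid plexus markers had a positive value, with a median of 1.29, and 2 were higher and 0 lower at that unadjusted p. The summed level of the 7 in the table was 25.5 to 53.1 CPM in OVX+RJ libraries, against 24.8 to 35.02 CPM in OVX, with Otx2 at 0 in OVX 1. Kl was the largest part of that sum in every library, at 18.1 to 25.1 CPM in OVX+RJ and 21.3 to 23.9 CPM in OVX. Ttr stood at 4.96 to 23.2 CPM in OVX+RJ libraries, against 1.87 to 8.49 CPM in OVX. Of 7 pericyte and smooth muscle markers 6 were negative, with summed levels of 156 to 164 CPM in OVX+RJ libraries, against 175 to 184 CPM in OVX and a median of -0.22, and none of the listed markers was at 0. At that unadjusted p, 2 of these 7 were lower and 0 higher. Without overlap, 3 of the 7 were lower and 0 higher, where 5.95% and 4.53% of all tested genes were. CA1 markers were at 585 to 653 CPM in OVX+RJ libraries, against 596 to 659 CPM in OVX, and microglia markers at 278 to 295 CPM in OVX+RJ libraries, against 284 to 295 CPM in OVX. The lists for interneurons, astrocytes, microglia, oligodendrocytes, endothelial cells, red blood cells, thalamus and neocortex had medians from -0.16 to 0.091. The part of cell composition in the Egr and Nab values was not tested, and in whole tissue fewer cells of a type and less RNA per cell cannot be told apart.

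**Figure D5:**
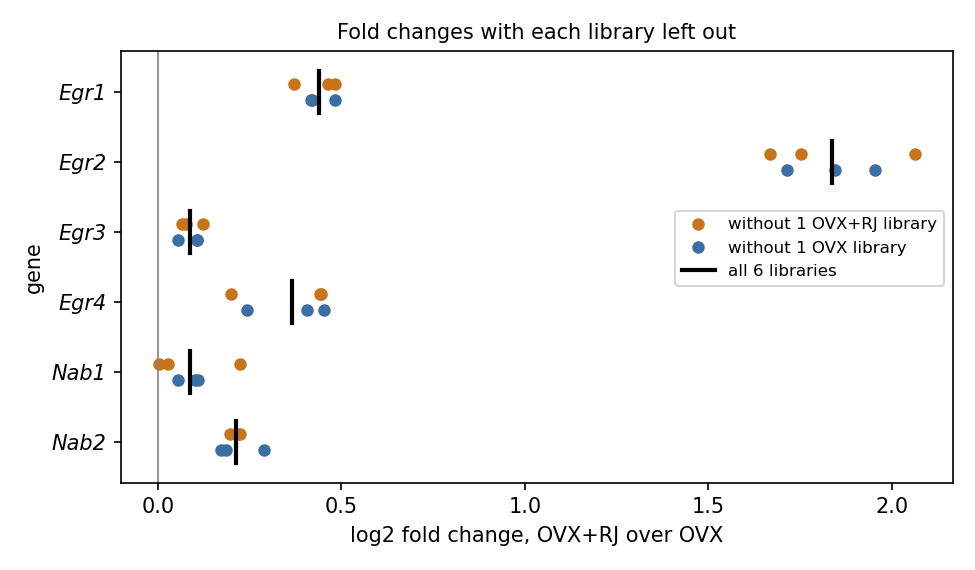
Log2 fold change of each gene, OVX+RJ over OVX, with all 6 libraries (black bar) and with each library left out in turn (orange for a left-out OVX+RJ library, blue for OVX). Egr2 stays between 1.67 and 2.06 and Egr1 between 0.37 and 0.48, while Egr4 runs from 0.20 to 0.45 and Nab1 from 0.0036 to 0.22.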

How the data were processed

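Poly(A) RNA was sequenced from 6 hippocampal libraries, 3 OVX+RJ and 3 OVX, made with a directional kit per the labels' protocols. The build GRCm39 and the tools HISAT2 2.2.1, StringTie 2.2.1, fastp 0.23.4 and bcl2fastq 2.19 are listed in the submitters' processing notes. Not given in the sources used here are the strand setting, the gene annotation and how multi-mapping reads were handled. The deposited table holds expected counts per gene symbol, not scaled between libraries, and its columns were matched to samples by the library names in the labels. Values were rounded to whole numbers (51 genes had some that were not whole), and 1 row with no gene name, at most 1.15e-05% of a library, was left out.

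The test was edgeR 4.0.16's, under R 4.3.3 (filterByExpr, TMM factors, glmQLFit, glmQLFTest, Benjamini-Hochberg adjustment over 18629 genes). Standard errors come from limma 3.58.1, fitted to log2 CPM (prior count 2). DESeq2 1.42.0 was an alternative, beside limma-voom, other scalings, other filters, robust empirical Bayes, a replicate block and each library left out. The test was checked on simulated data. An exact permutation test of 3 against 3 could not go below 0.1, so none was run. Named genes were the members, up to 4 genes per list with the lowest p, and the 5 genes closest in pattern to each member. Marker lists are given as medians and summed levels. Some genes that the rule names are not reported here. The members, lists and rules were chosen with earlier results of these data known. GENCODE M21 (GRCm38) gave transcript lengths and overlapping genes, and RefSeq (GRCm38.p6) gave promoters. These builds differ from the GRCm39 of the counts, and no count was placed by coordinate.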

Additional observations from a re-analysis of the deposited data

How the results depend on the processing

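Every alternative reuses the same libraries, and leaving out 1 of the 3 in a group can hardly move its mean by 1 SD. Staying within 1 SD is therefore a weak check, and Nab1 at 0.0036 still met it. A positive sign was also all but fixed for members whose groups did not overlap. With those limits, all 90 recomputed log2 fold changes of the 6 members, over 15 alternatives each, were positive. They also lay within 1 SD of the libraries from the reported value. With each library left out in turn they ran from 0.37 to 0.48 for Egr1, 1.67 to 2.06 for Egr2, 0.054 to 0.12 for Egr3, 0.20 to 0.45 for Egr4, 0.0036 to 0.22 for Nab1 and 0.17 to 0.29 for Nab2. The number of genes called over the whole table was 0 higher and 0 lower. It was 10 and 3 with DESeq2, 2 and 1 with robust empirical Bayes, and 0 to 7 higher and 0 to 1 lower with a library left out, the 7 without OVX+RJ 2. The cause was not tested. With the replicate number as a block, 1 gene was called higher and 0 lower, and the log2 fold change of Egr2 was 1.79. No pairing of libraries by number is given in the sources used here. The correlations of same-numbered deviations from group means across genes were 0.046, -0.0024 and 0.0031, which cannot settle whether such libraries were paired. Depth limits Egr2 most, at 63 to 253 counts a library.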
